A study of Mus musculus with 16 samples.

Results

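The genes of iron and copper handling described here are 10: the ferroxidases Hephl1, Heph and Cp, the iron exporter Slc40a1, the iron carrier Trf, its receptor Tfrc, the transporter Slc11a1, the ferritin chains Ftl1 and Fth1, and the heme-degrading enzyme Hmox1. They were found by matching the RefSeq identifier of each entry of the expression table to the gene symbol, which gave 24 transcripts for the 10 genes among 130343 transcripts in the table and 35552 symbols. RNA was sequenced from inguinal subcutaneous adipose tissue (SAT) and mesenteric visceral adipose tissue (VAT) of male wild-type C57BL/6J mice, 4 lean mice on a normal laboratory diet and 4 obese mice on a high-fat diet with 42% of its energy from fat and 0.2% cholesterol, begun at 10 weeks of age and kept up for 12 to 14 months. Each mouse gave 1 SAT library, from both inguinal depots combined, and 1 VAT library, all from tissue freed of visible vessels, so there are 16 libraries in 4 groups of 4. All mice are of 1 sex and 1 strain, and obesity here stands for this diet and its duration together. Hephl1 was chosen by the measured values themselves, for its rise in SAT and not in VAT of obese mice. Its values are therefore given as a description with no test, while the other 9 genes were chosen for their function, with earlier results of these data known, and the 7 of them that passed a filter on low counts were tested.

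Iron moves through a cell in few steps. Transferrin, the product of Trf, carries ferric iron in blood, and the transferrin receptor Tfrc takes it into endosomes. Ferritin, a shell of heavy (Fth1) and light (Ftl1) chains, stores iron, ferroportin (Slc40a1) lets ferrous iron out, and a multicopper ferroxidase oxidizes it so that transferrin can bind it. Ceruloplasmin (Cp), hephaestin (Heph) and the hephaestin-like protein of Hephl1, also called zyklopen and known from placenta and hair, are the ferroxidases of this family, and each holds copper in its active site. Heme oxygenase (Hmox1) frees iron from heme, and Slc11a1 moves metal ions out of the phagosomes of macrophages. In adipose tissue, macrophages are known to take part in storing and recycling iron.

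Part of this handling is set at the RNA itself. Iron regulatory proteins bind a hairpin called the iron-responsive element. Bound before the coding sequence, they hold back translation, and bound after it, they protect the mRNA. The elements of the genes below are shown because the mRNA levels reported here do not register the first kind of control. They were found in GRCm39 transcripts as a C, 5 bases, the loop and 5 bases that pair, and the capitals mark the loop.
Fth1 5′ UTR, chr19:9960096-9960124, plus strand: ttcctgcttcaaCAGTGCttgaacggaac
Ftl1 5′ UTR, chr7:45109203-45109231, minus strand: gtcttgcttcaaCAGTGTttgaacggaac
Slc40a1 5′ UTR, chr1:45964625-45964653, minus strand: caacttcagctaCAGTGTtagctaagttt
Tfrc 3′ UTR, chr16:32450037-32450065, plus strand: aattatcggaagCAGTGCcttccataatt
Tfrc 3′ UTR, chr16:32450416-32450444, plus strand: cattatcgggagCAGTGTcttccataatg
Tfrc 3′ UTR, chr16:32450481-32450509, plus strand: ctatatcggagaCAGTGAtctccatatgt
Tfrc 3′ UTR, chr16:32450528-32450556, plus strand: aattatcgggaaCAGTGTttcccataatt

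Of 21575 protein-coding genes, 0.218% hold this pattern in a 5′ UTR and 0.756% in a 3′ UTR. Among the 10 genes, only Fth1, Ftl1, Slc40a1 and Tfrc matched it, and a match is a description of the letters and not of binding.

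Counts set what can be said of each gene. Total counts ranged from 1256082 in VAT of lean mouse 1 to 16614407 in SAT of obese mouse 3, and VAT of obese mouse 1 was also shallow with 2247737. Of the 24 transcripts, 12 had at least 1 count and 8, from 8 genes, passed the filter of a CPM (counts scaled to the library total) above 1 in at least 3 libraries. Fth1 did not pass. Its protein-coding entry was listed at 0 in all 16 libraries and its second entry held 10 counts in all. Tfrc did not pass either, with 46 counts over both entries and all libraries. Heph, Cp, Slc40a1 and Slc11a1 had all their counts on 1 entry (of 4, 6, 3 and 2), while those of Tfrc were split into 31 and 15 on its 2 entries. How reads shared by entries were treated is not stated, so a low count is not read as low expression, and levels are compared between samples and not between genes. Ftl1 and Fth1 have many near-identical pseudogene copies, so their counts are uncertain in addition. Values below are CPM scaled by TMM factors, summed per gene.

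**Figure D1:**
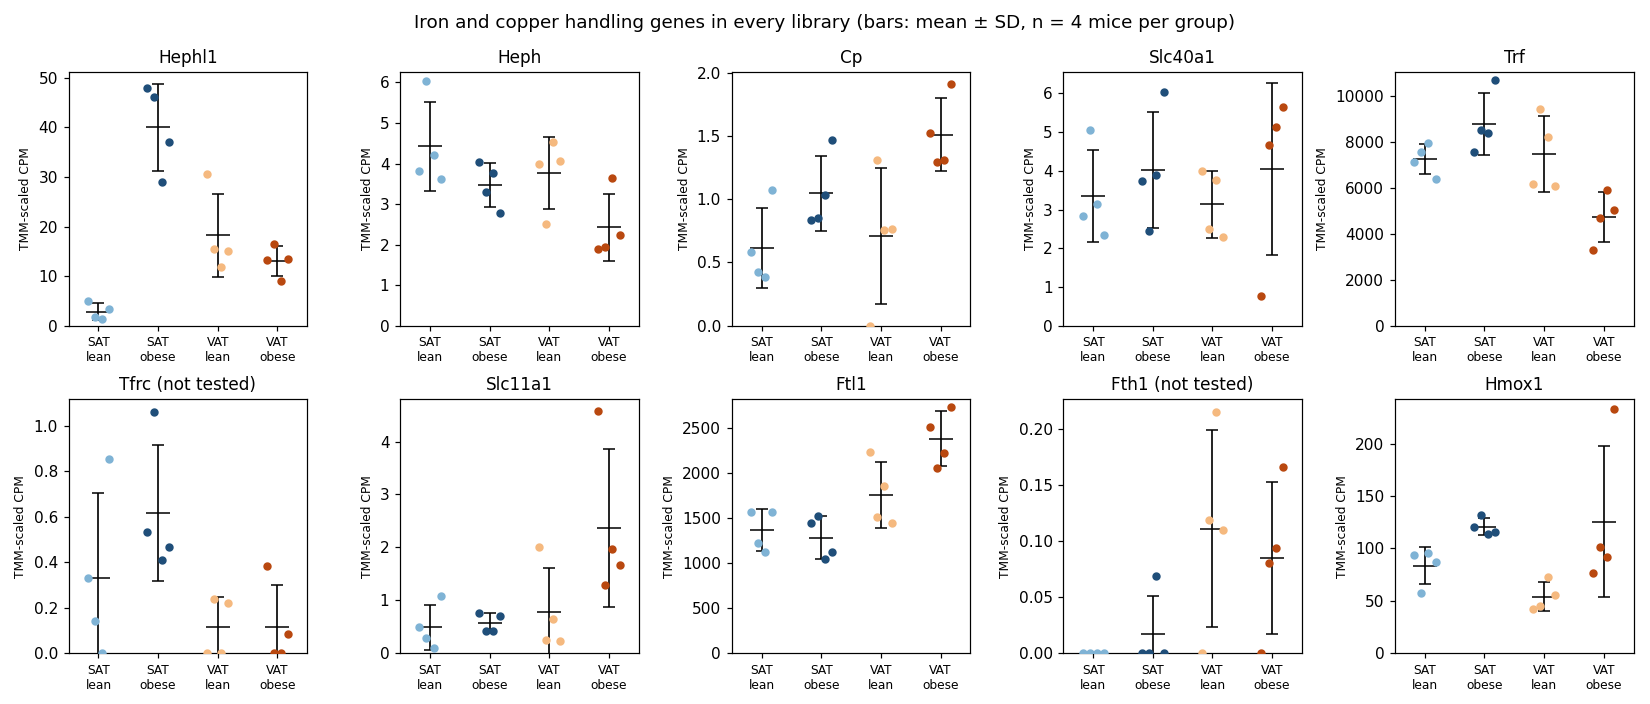
TMM-scaled CPM (linear axis) of the 10 genes in every library of lean and obese SAT and VAT, with each group's mean and SD (n = 4). Hephl1 lies between 1.43 and 4.99 in lean SAT and between 29.1 and 48.0 in obese SAT, and Tfrc and Fth1 stay near 0.

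Hephl1 had the largest log2 fold change between diets of the 8 genes past the filter, in SAT, the rise for which it was chosen. In lean SAT it stood at 4.99, 1.69, 1.43 and 3.41 CPM in mice 1 to 4, and in obese SAT at 48.0, 46.2, 29.1 and 37.0 CPM. The lowest obese SAT library was above the highest lean one, and the means were 2.88 ± 1.66 and 40.1 ± 8.74 CPM (SD, n = 4). The log2 fold change relative to lean was 3.77 (SE 0.33), a 13.6-fold difference, resting on 103 counts over the lean and 1970 over the obese libraries.

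In VAT no such separation was seen. Lean VAT held 30.6, 15.5, 11.8 and 15.1 CPM and obese VAT 13.3, 16.5, 9.05 and 13.4 CPM, so the groups overlapped. It stood at a log2 fold change of -0.36 (SE 0.30), and -0.12 without lean mouse 1, whose VAT library gave the highest value from 46 counts. Ordered by mean, lean SAT was lowest, obese VAT (13.1 ± 3.05) and lean VAT (18.3 ± 8.40) overlapped each other, and obese SAT was highest, with its lowest library, at 29.1, just below the highest lean VAT library.

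The depots thus changed order with diet. In lean mice VAT exceeded SAT in 4 of 4 animals, by 4.44 to 9.19 times within a mouse. In obese mice SAT exceeded VAT in 4 of 4, and the ratio of VAT to SAT was 0.278 to 0.363. The fitted log2 difference of VAT from SAT was 2.73 (SE 0.20) in lean and -1.60 (SE 0.16) in obese mice, and the VAT response minus the SAT response was -4.34 (SE 0.26).

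**Figure D2:**
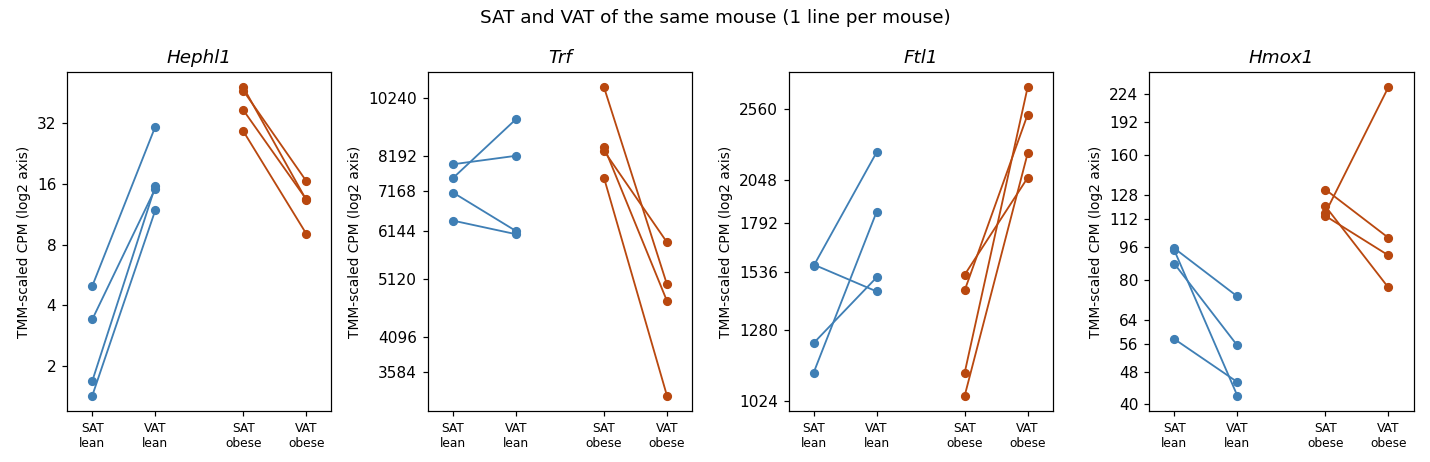
TMM-scaled CPM (log2 axis) of Hephl1, Trf, Ftl1 and Hmox1 in SAT and VAT, with 1 line joining the depots of each mouse (blue, 4 lean; orange, 4 obese). Hephl1 lines rise from SAT to VAT in lean mice and fall in obese mice, while Trf lines fall in each obese mouse and have no common direction in lean mice.

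Hephl1 lies on chr9:14963137-15023415 (GRCm39, minus strand) and has 2 entries. The protein-coding transcript held 3061 of 3125 counts, and its own log2 fold changes were 3.75 in SAT and -0.29 in VAT. The second, a predicted transcript, had 12, 7, 13 and 8 counts in obese SAT and 0 in every lean SAT library. Because Hephl1 is known from hair, markers of skin were examined. The 8 keratinocyte and hair follicle genes summed to 3.09 to 5.90 CPM in lean SAT and 3.64 to 6.36 CPM in obese SAT, and Krt5 was listed at 0 in all libraries. Only 3 of the 8 passed the filter, and most of the mean sum was Sfn (3.83 of 4.66 CPM in lean, 3.95 of 4.81 CPM in obese SAT). Among the others, Krt1 went from 0 to 10 counts and Krt10 from a mean of 0.835 to 0.629 CPM. The part of skin cells was not tested.

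The 250 bases before the Hephl1 start are shown because Hephl1 had the largest log2 fold change between diets of the 8 genes past the filter (RefSeq, GRCm38.p6, chr9:15112109-15112358, minus strand). The capitals mark a CCAAT box and, on the other strand, a TATA box.
Hephl1 promoter: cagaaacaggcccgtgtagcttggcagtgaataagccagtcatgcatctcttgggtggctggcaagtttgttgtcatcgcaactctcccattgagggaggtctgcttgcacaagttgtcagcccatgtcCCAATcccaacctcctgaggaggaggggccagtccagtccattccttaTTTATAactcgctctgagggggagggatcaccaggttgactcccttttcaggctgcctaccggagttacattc

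CCAAT occurs, on either strand, in 37.4% of 32851 promoters of the same 300-base window, and the TATA box, searched as TATAAA, in 13.6%. The window held no antioxidant response element, searched as TGACNNNGC, which 12.4% of promoters hold. It held no metal response element, searched as TGCACNC and, in another form, as TGCGCNC, which 12.6% and 15.4% hold. The E-box CACGTG, found in 7.15%, was also not in it. Promoters of Cp, Tfrc, Fth1, Ftl1 and Slc11a1 were searched too. In 1 promoter of Tfrc 2 matches to TGCGCNC overlapped on opposite strands, and the other windows held none of these 3 kinds of element. Those of Heph, Trf, Slc40a1 and Hmox1 were not searched.

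The pattern of Hephl1 over the 16 libraries was compared with that of 10706 other genes, using log2 CPM. The 5 most alike were Glb1, a lysosomal galactosidase (Pearson's r 0.875, Spearman's rho 0.750), Myo10, a motor of filopodia (0.868 and 0.724), Snx18, a sorting nexin (0.868 and 0.779), Crim1 (0.862 and 0.732) and Gprin3 (0.861 and 0.809). The points share the 4 groups and the depth of each library, and within groups likeness was weaker: the r of deviations from the group means was 0.364 for Glb1, 0.290 for Myo10, 0.663 for Snx18, 0.0928 for Crim1 and 0.00700 for Gprin3. Gprin3, for one, held 29.7 to 40.1 CPM in lean and 179 to 261 CPM in obese SAT. In VAT, unlike Hephl1, its diet groups did not overlap either, with 70.6 to 87.1 CPM in lean and 103 to 173 CPM in obese mice. The other 7 genes of iron handling that passed the filter had an r with Hephl1 between -0.362 (Heph) and 0.263 (Slc11a1).

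The other ferroxidases gave no call in either depot. Heph stood at 3.82, 6.04, 4.21 and 3.62 CPM in SAT of lean mice and 4.04, 3.29, 3.76 and 2.79 CPM in SAT of obese mice. Its VAT libraries held 4.00, 2.50, 4.52 and 4.06 CPM on the normal diet and 1.90, 1.94, 3.64 and 2.24 CPM on the high-fat diet. Groups overlapped in both depots, and the log2 fold changes of -0.35 in SAT (95% interval -0.89 to 0.20) and -0.55 in VAT (-1.15 to 0.05) did not pass (edgeR, adjusted p = 0.440 and 0.250). Cp, the ferroxidase of plasma, held 0 to 23 counts in a library. Its log2 fold changes were 0.87 in SAT (-0.08 to 1.82) and 0.73 in VAT (-0.16 to 1.63), with adjusted p = 0.237 and 0.316 by edgeR. In VAT of lean mouse 1 Cp had 0 counts, which allows up to 2.00 CPM at that depth.

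Ferroportin, the known iron exporter, also gave no call. Slc40a1 was at 2.83, 5.06, 3.15 and 2.34 CPM in lean SAT and 3.73, 2.44, 3.90 and 6.04 CPM in obese SAT. In VAT it was at 4.00, 2.50, 3.77 and 2.30 CPM in lean and 0.762, 4.68, 5.13 and 5.64 CPM in obese mice, where the low value of mouse 1 came from 2 counts. Relative to lean, it was at 0.27 in SAT on the log2 scale (-0.44 to 0.99) and 0.60 in VAT (-0.16 to 1.36), with adjusted p = 0.674 and 0.339 by edgeR.

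**Figure D3:**
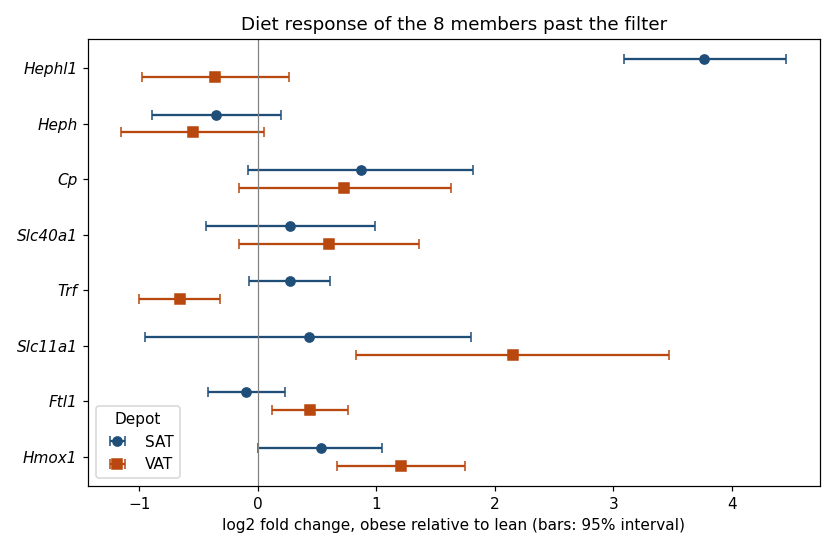
Log2 fold change of obese relative to lean mice in SAT (circles) and VAT (squares) for the 8 genes past the filter, with 95% intervals. Hephl1 in SAT (3.77) lies far to the right of the other genes. In VAT the whole interval of Trf lies below 0, those of Slc11a1, Ftl1 and Hmox1 lie above it, and the others include 0.

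Diet responses were tested for the 7 of these genes other than Hephl1 in 1 fit of all 12186 genes. In SAT none was called at an adjusted p below 0.05 (edgeR), against 11.6% of all genes tested, and 1, Hmox1, had an unadjusted p below 0.05. DESeq2 and limma voom also called 0. At the study's further limit of 1.5 on the log2 scale, 2.59% of all genes were called in SAT and 3.22% in VAT, and none of the 7 was among them apart from Slc11a1 in VAT. In VAT Hmox1 rose, where 6.88% of all genes did, and Trf fell, where 5.28% did. Slc11a1 was the third call there, but it entered the fit through obese VAT, whose 4 libraries were among the 6 with a CPM above 1, so its fitted values are a description and support nothing. Counted by transcript, Ftl1 was called too, where 10.9% of all transcripts were called. Without lean mouse 2, only Hmox1 remained called in VAT.

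Trf, which encodes transferrin, fell in VAT of obese mice. Lean SAT held 7123, 7530.3, 7938 and 6397 CPM and obese SAT 7535, 8487, 8355 and 10661 CPM. Lean VAT held 6148, 9432, 8200.0 and 6073 CPM, and obese VAT 3272, 4704, 5889 and 5012 CPM. Every obese VAT library lay below every lean VAT library, while the SAT groups overlapped. The log2 fold change was -0.66 in VAT (SE 0.16, edgeR adjusted p = 0.00977) and 0.27 in SAT (SE 0.16, adjusted p = 0.306). The VAT call was lost without lean mouse 2 (log2 fold change -0.50, adjusted p = 0.0811) and without lean mouse 3 (-0.58, adjusted p = 0.0601).

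The difference between the depots was tested itself. The VAT response minus the SAT response of Trf was -0.93 (SE 0.16, edgeR with the mouse as a block, adjusted p = 0.00246), the only call among the 7 genes, where 1.62% of all genes were called lower and 0.853% higher. Without that replicate block the difference was the same size and the adjusted p was 0.0502. In lean mice VAT and SAT did not differ beyond their spread (0.02, 95% interval -0.22 to 0.26), and VAT was above SAT in 2 of 4 mice. In obese mice VAT was below SAT in 4 of 4, by -0.91 on the log2 scale (SE 0.11, adjusted p = 4.10e-06 by edgeR).

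Trf is also read beside the adipocyte markers, because adipocytes express it. The 8 adipocyte genes summed to 22448 to 34742 CPM in lean VAT and to 15348 to 25487 CPM in obese VAT, and 4 of them, Adipoq, Plin1, Lipe and Cfd, were called lower. In SAT 1 of 8, Cfd, was called lower, and the sums were 41175 to 58198 CPM in lean and 36866 to 52475 CPM in obese mice. In the VAT response minus the SAT response 2 of 8 were called lower and 0 higher. These were Plin1 (-0.69, edgeR adjusted p = 0.0312) and Lipe (-0.67, adjusted p = 0.0251), of the same sign as Trf. In whole tissue, fewer cells of a type and less RNA per cell cannot be told apart, and the part of cell numbers in the Trf result was not tested.

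Tfrc, the receptor of transferrin, did not pass the filter and was not in the fit used here. Its counts were 4, 1, 0 and 4 in lean SAT, 7, 10, 6 and 6 in obese SAT, 0, 4, 0 and 2 in lean VAT and 1, 0, 0 and 1 in obese VAT. On the CPM scale the SAT groups overlapped (0 to 0.853 and 0.411 to 1.06 CPM). In obese mice VAT held 0 to 0.381 CPM, below every SAT library, the highest value being 1 count in a shallow library, and Tfrc was called between these depots by edgeR with no filter on low counts. Tfr2, another transferrin receptor known from liver and erythroid cells, did pass the filter and is described below.

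Ftl1, the ferritin light chain, did not differ between diets beyond its spread in SAT. Lean SAT held 1566, 1229, 1120.3 and 1572 CPM and obese SAT 1450.3, 1523, 1042 and 1120.2 CPM, with a log2 fold change of -0.10 (adjusted p = 0.756, edgeR). Lean VAT held 2236, 1510.0, 1855 and 1445 CPM and obese VAT 2517, 2064, 2228 and 2742 CPM. The lowest obese VAT library lay between the second highest and the highest lean one, so the groups overlapped by 1 lean library, that of the shallow mouse 1. The log2 fold change in VAT was 0.44 (SE 0.16) with an adjusted p of 0.0709 over genes, and 0.49 with an adjusted p of 0.0402 over transcripts, both by edgeR. The call over transcripts held under 7 of 18 alternatives (adjusted p up to 0.200), and 5 of 18 gave a call over genes. Without the VAT library of lean mouse 1 the value over genes was 0.57 (adjusted p = 0.0160).

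Between depots Ftl1 was higher in VAT. In obese mice this held in 4 of 4 animals, with ratios of 1.36 to 2.45 and a log2 difference of 0.91 (SE 0.13, edgeR adjusted p = 2.69e-05). In lean mice it held in 3 of 4, with a log2 difference of 0.35 (SE 0.13, adjusted p = 0.0773). The difference between the 2 diet responses was 0.55 (95% interval 0.16 to 0.94, adjusted p = 0.133) and did not pass.

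Fth1, the ferritin heavy chain, gave no usable values. Its 10 counts fell on 7 libraries, with at most 2 in any of them, and the 4 lean SAT libraries held none, which allows 0.249 to 0.640 CPM by library. Ferritin is therefore seen here through its light chain alone.

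Hmox1 rose in VAT of obese mice. Lean VAT held 42.0, 45.3, 72.9 and 55.5 CPM and obese VAT 76.6, 101, 91.6 and 233 CPM. The groups did not overlap, and mouse 4 of the obese group stood well above the other 3. The log2 fold change was 1.21 (SE 0.26, edgeR adjusted p = 0.00339), a 2.31-fold difference, and 0.74 without obese mouse 4 (adjusted p = 0.0192).

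In SAT the Hmox1 groups did not overlap either, but the difference was smaller. Lean SAT held 94.1, 57.5, 95.2 and 87.4 CPM and obese SAT 120.3, 132, 114 and 116 CPM. The log2 fold change of 0.53 (SE 0.25, adjusted p = 0.189, edgeR) did not pass in the fit of all 16 libraries and did in a fit of the SAT libraries alone (0.52, adjusted p = 0.0248). The response in VAT minus that in SAT, 0.52 (95% interval -0.04 to 1.09, adjusted p = 0.379), did not pass, so Hmox1 is not shown to respond differently in the depots.

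In lean mice Hmox1 was lower in VAT than in SAT in 4 of 4 animals, at 0.446 to 0.788 of the SAT level. The log2 difference was -0.60 (SE 0.19, edgeR adjusted p = 0.0399), where 7.22% of all genes were called lower and 8.67% higher. It missed the threshold without the replicate block (adjusted p = 0.123) and without any 1 of the lean mice (0.0554 to 0.181). In obese mice the difference was -0.08 (95% interval -0.47 to 0.32), VAT being above SAT in mouse 4 alone, and without that mouse it was called (-0.42, adjusted p = 0.0495).

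Slc11a1, the phagosome transporter also known as Nramp1, had few counts. It held 0.499, 0.281, 0.0956 and 1.07 CPM in lean SAT and 0.762, 0.424, 0.411 and 0.697 CPM in obese SAT, 1 to 10 counts in a library. In VAT it held 2.00, 0.238, 0.646 and 0.219 CPM in lean mice and 4.57, 1.29, 1.96 and 1.66 CPM in obese mice. The VAT groups overlapped by the lean library of mouse 1, whose 2.00 CPM came from 3 counts. As a description, since the gene passed the filter through obese VAT, the log2 fold change in VAT was 2.15 (95% interval 0.83 to 3.47, edgeR adjusted p = 0.0285), and the call was lost without any 1 of 5 mice (adjusted p 0.0506 to 0.130). In obese mice VAT exceeded SAT in 4 of 4, by 1.91 on the log2 scale (adjusted p = 0.0131), and the call was lost without obese mouse 1 (1.71, adjusted p = 0.0572) and without obese mouse 3 (1.83, adjusted p = 0.0594). In SAT the value was 0.43 (-0.95 to 1.80, adjusted p = 0.743), and the difference between depots, 1.42 (-0.63 to 3.48), was not called.

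Across depots in obese mice, Ftl1 was higher in VAT, where 16.3% of all genes were, and Trf was lower, where 15.1% were. Slc11a1 was called too and is not counted, since it passed the filter through obese VAT. In lean mice Hmox1 was the single call. Counts of this size are read against those shares and say nothing particular about iron.

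Macrophage markers were higher in the same obese VAT libraries in which Hmox1 was higher. The 8 macrophage genes summed to 2474 to 3209 CPM in lean VAT and 5373 to 7585 CPM in obese VAT, and 6 of 7 tested were called higher. In SAT the sums were 1407 to 2020.4 and 2269.7 to 3184 CPM, with 5 of 7 called higher. The markers of lipid-associated macrophages, cells that gather around dying adipocytes, summed to 276 to 343 CPM in lean VAT and 634 to 1909 CPM in obese VAT. The highest of these, 1909, was in obese mouse 4, the mouse with the highest Hmox1. In SAT the same list went from 279 to 349 up to 455 to 587 CPM. None of the markers in these lists was at 0 in all libraries, and the part of these cells in the results above was not tested.

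**Figure D4:**
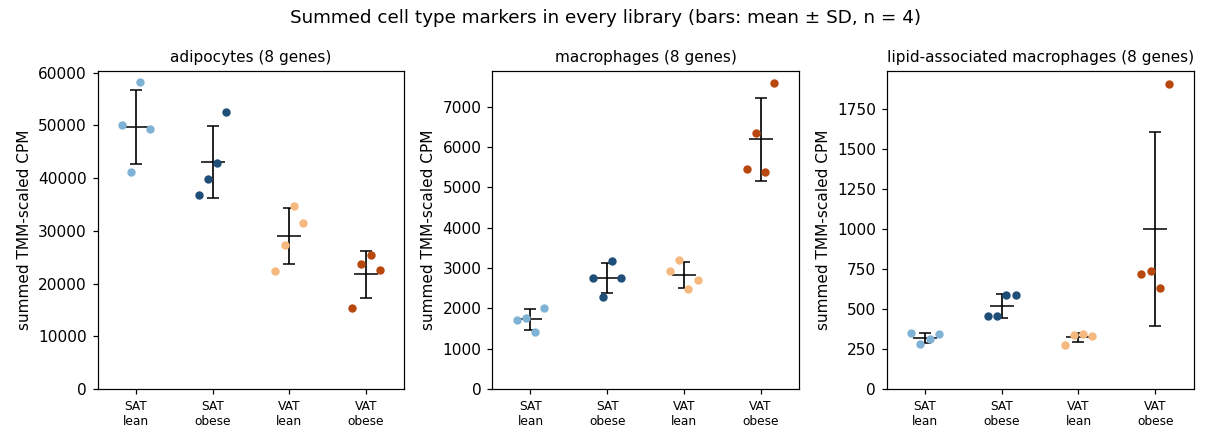
Summed TMM-scaled CPM (linear axes) of the 8 adipocyte, 8 macrophage and 8 lipid-associated macrophage markers in every library, with the mean and SD of each group (n = 4). Macrophage sums are highest in obese VAT, 5373 to 7585 CPM, and the lipid-associated list reaches 1909 CPM in 1 obese VAT library.

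Blood and other tissues were checked as well. Genes of erythroid cells and blood summed to 302 to 390.4 CPM in lean and 246 to 501 CPM in obese SAT, and to 130.1 to 234 and 197 to 312 CPM in VAT, and 1 of 6 tested was called, higher in VAT. Skeletal muscle markers stayed at or below 2.34 CPM in sum, mesothelial markers were present in VAT (251 to 607 CPM) and at 1.41 CPM or less in SAT, and lymphocyte markers summed to 37.5 to 245 CPM in lean and 199 to 353 CPM in obese VAT. Of 6 lymphocyte genes tested, 3, Cd79a, Cd79b and Cd3g, were called higher in VAT, and 0 were called in SAT. Pecam1, an endothelial marker, was listed at 0 throughout, while the endothelial list summed to 82.7 to 158 CPM over all groups. Of the 5 endothelial genes tested, 1, Vwf, was called higher in SAT (log2 fold change 1.63, edgeR adjusted p = 0.000162), and its VAT response minus its SAT response was -1.37 (adjusted p = 0.0187). The other 4 were at 0.04 (Kdr) to 0.56 (Emcn) in SAT and were not called in either depot or in the difference of responses by edgeR. Intestinal epithelium markers summed to at most 24.0 CPM in lean and 17.1 CPM in obese SAT, and to 13.3 to 47.4 and 15.7 to 17.9 CPM in VAT. Of the 5 that passed the filter, Zg16 did so through lean VAT, with 1.33, 5.36, 0.323 and 4.39 CPM there and at most 0.426 CPM in any other library, and these values are given as a description. The part of these cells in the results was not tested.

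The wider pathway was read through 69 further genes of iron, heme and copper handling in 7 lists, of which 45 passed the filter. In SAT 6 were called higher and 2 lower, and in VAT 6 higher and 3 lower. Of all genes, 6.35% were called higher and 5.25% lower in SAT, and 6.88% and 5.28% in VAT, and the counts of each list below are read against those shares. The median log2 fold change of the 45 was 0.20 in SAT and 0.13 in VAT beside -0.00 and -0.02 over all genes. The called genes are 11 in all, and 5 of them rose in both depots: Tfr2, Lcn2, Blvra, Mt1 and Mt2.

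**Figure D5:**
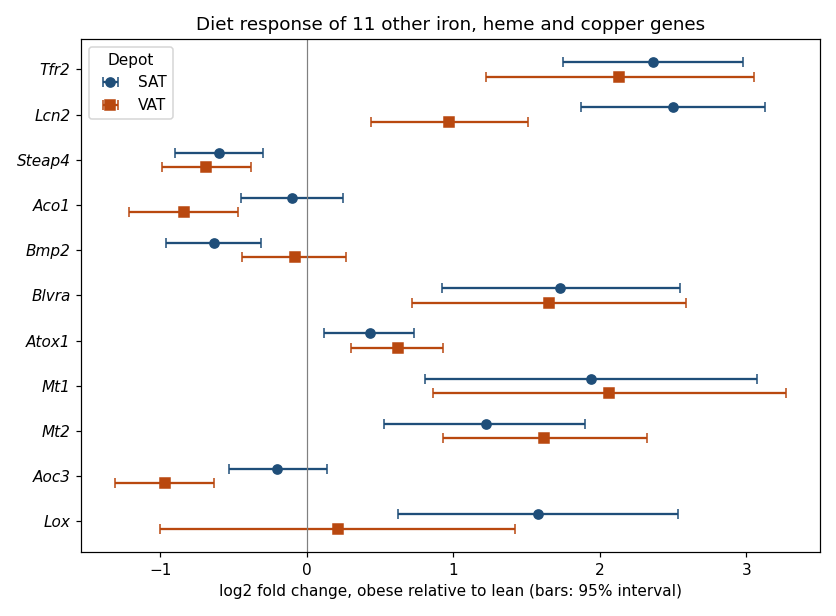
Log2 fold change of obese relative to lean mice in SAT (circles) and VAT (squares), with 95% intervals, for the 11 pathway genes called in either depot. The intervals of Tfr2, Lcn2, Blvra, Mt1, Mt2 and Atox1 lie above 0 in both depots, and those of Steap4 lie below 0 in both.

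Among genes of iron entry, Tfr2 rose in both depots. It held 3.16, 1.83, 2.20 and 2.56 CPM in lean SAT and 9.91 to 15.5 CPM in obese SAT. In VAT the lean mice held 0.666, 0.298, 0.969 and 0.219 CPM against 2.29, 3.31, 1.31 and 1.66 CPM in the obese. The lean VAT values came from 1, 5, 9 and 2 counts. Groups did not overlap in either depot, and the log2 fold changes were 2.36 (SE 0.30) and 2.13 (SE 0.44), with edgeR adjusted p = 2.27e-05 and 0.00252. The responses differed by -0.44 (95% interval -1.58 to 0.70), which was not called. Tfr2 was lower in VAT than in SAT on both diets, by -2.15 in lean and -2.59 in obese mice, in 4 of 4 mice each.

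Lcn2, a carrier of iron-binding siderophores, rose in both depots. Lean SAT held 2.41, 2.53, 1.05 and 3.41 CPM and obese SAT 16.6, 13.3, 11.4 and 9.37 CPM. In VAT the values were 7.99, 15.3, 15.7 and 9.76 CPM in lean and, in obese mice, 29.7, 20.2, 18.7 and 32.9 CPM. The log2 fold changes were 2.50 in SAT and 0.97 in VAT (adjusted p = 1.50e-05 and 0.0151), VAT stayed above SAT in every mouse, and the difference of the responses, -1.48 (95% interval -2.32 to -0.65), had an adjusted p of 0.0520 by edgeR and was called under 8 of 17 alternatives. The VAT call of Lcn2 was lost without lean mouse 4 (adjusted p = 0.0507) and without obese mouse 4 (0.0702).

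Steap4, a metalloreductase of endosomes, fell in both depots. Its CPM went from 2456 to 3178 in lean SAT to 1691 to 1979 in obese SAT, without overlap, and from 1391 to 2365 in lean VAT to 1054 to 1493 in obese VAT, where 1 lean library lay within the obese range. On the log2 scale it was at -0.60 in SAT and -0.69 in VAT (edgeR adjusted p = 0.00884 and 0.00312). With Steap4 the 12 genes of iron entry and reduction gave 3 calls in each depot among 8 tested.

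Genes that sense or signal iron gave 1 call in each depot among 6 tested. Aco1, which encodes an iron regulatory protein and not the only one, fell in VAT from 22.8 to 37.3 CPM in lean to 11.9 to 21.7 CPM in obese mice (log2 fold change -0.84, SE 0.18, edgeR adjusted p = 0.00312). In SAT it was at -0.10 (adjusted p = 0.757), and the difference of responses, -0.75, was not called (adjusted p = 0.0987). Bmp2, which can induce hepcidin in liver, fell in SAT (-0.63, adjusted p = 0.0110) and was at -0.08 in VAT. The list of iron storage turnover and chaperones, with Ncoa4 and Pcbp1, had 0 of 5 called in either depot by edgeR.

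Heme genes beyond Hmox1 gave 1 call in 10. Blvra, biliverdin reductase, acts on the product of heme oxygenase and rose by 1.73 in SAT and 1.65 in VAT on the log2 scale (edgeR adjusted p = 0.00594 and 0.0173). It held 0.831 to 1.72 CPM in lean and 2.67 to 5.82 CPM in obese SAT, and 0.329 to 1.33 and 1.21 to 4.07 CPM in VAT. The VAT call was lost without any 1 of 4 mice (adjusted p 0.0564 to 0.124).

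On the copper side, the metallothioneins, small proteins that bind copper and zinc, had 2 of 2 tested called higher in both depots, where 6.35% of all genes were in SAT and 6.88% in VAT. Mt2 held 32.2, 16.3, 20.3 and 31.8 CPM in lean SAT and 79.8, 73.4, 22.3 and 58.0 CPM in obese SAT, where mouse 3 lay within the lean range. In VAT it held 64.6, 29.9, 37.1 and 30.7 CPM in lean and 184, 123, 78.4 and 92.8 CPM in obese mice, without overlap. On the log2 scale it rose by 1.22 and 1.62 (edgeR adjusted p = 0.0186 and 0.00253), and the SAT call was lost without any 1 of 4 mice (adjusted p 0.0514 to 0.0732). Mt1, with 0.422 to 9.12 CPM over all libraries, rose by 1.94 and 2.06 with overlapping groups, and each call was lost without some single mice (adjusted p up to 0.0892 in SAT and 0.0926 in VAT), that in VAT also by DESeq2 (0.0869).

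The promoter of Mt2 is shown beside that of Hephl1 because metallothioneins are the known example of control by metal response elements (RefSeq, GRCm38.p6, chr8:94172368-94172617, plus strand). The capitals mark 3 such elements and an antioxidant response element, and a further element lies after the start, outside these 250 bases.
Mt2 promoter: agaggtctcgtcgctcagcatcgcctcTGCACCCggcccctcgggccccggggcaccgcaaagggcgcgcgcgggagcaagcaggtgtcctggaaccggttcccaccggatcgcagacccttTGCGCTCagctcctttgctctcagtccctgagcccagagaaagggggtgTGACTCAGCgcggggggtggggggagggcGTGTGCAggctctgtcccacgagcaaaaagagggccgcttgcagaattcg

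Copper delivery to the ferroxidases was read from 10 genes of copper entry, delivery and export. Of 8 tested, 1 was called, Atox1, the copper chaperone that hands copper to the secretory pathway. It rose in VAT from 37.1 to 52.6 CPM to 55.6 to 75.5 CPM (log2 fold change 0.62, edgeR adjusted p = 0.00914), and in SAT its groups did not overlap (0.43, adjusted p = 0.0649). The SAT value of Atox1 was called by DESeq2 (adjusted p = 0.0447), by voom (0.0359) and by edgeR without lean mouse 1 (0.0172). It was also called by edgeR with same-numbered lean and obese mice, which are different animals, taken as a block (0.0489). The other 7 were not called in SAT by edgeR.

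Other copper enzymes gave 1 call in each depot among 6 tested. Aoc3, a copper amine oxidase of adipocytes, fell in VAT from 1646, 1582, 1893 and 1736 CPM to 1037, 1044, 910.4 and 516 CPM (log2 fold change -0.97, SE 0.16, edgeR adjusted p = 0.000415). In SAT it was at -0.20 (adjusted p = 0.480). The difference of the responses was -0.82 (SE 0.17, adjusted p = 0.00963), of the same sign and near the size of that of Trf, and the adjusted p was 0.105 without the replicate block and 0.0567 without lean mouse 4. Lox, lysyl oxidase, which links collagen, rose in SAT from 2.29 to 6.18 CPM to 8.35 to 18.6 CPM (1.58, adjusted p = 0.0289) and was at 0.21 in VAT (SE 0.58). Its SAT call was lost without any 1 of 3 mice (adjusted p 0.0693 to 0.121) and by DESeq2 (0.104).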

How the data were processed

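Paired-end reads of poly(A) RNA were trimmed by the authors with Trim Galore (0.6.6 in the submitters' processing notes, another version in the study's methods), aligned with HISAT2 2.2.0 to GRCm39 with its RefSeq annotation and counted with HTSeq 0.13.5. The strand setting and the treatment of reads shared by transcripts are not given in the sources used here. The deposited table holds raw counts per transcript and CPM, made by the authors by scaling counts to each library's total. The CPM columns carry no further scaling and served only for a check against the counts. Gene symbols came from RefSeq identifiers (106811 transcripts). The members and lists were chosen with earlier results of these data known.

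Counts were summed per symbol, and 12186 genes (13288 transcripts) were kept whose CPM exceeded 1 in 3 or more libraries. The quasi-likelihood F-test of edgeR 4.0.16 was used in R 4.3.3 (normalization by TMM, legacy=TRUE, all 16 libraries, Benjamini-Hochberg over all features). By the design, the main count of called members was taken both by transcript and by gene. Called means an adjusted p below 0.05 at any size. Diets were compared by group. Depots and the difference of responses were fitted with the mouse as a block. SAT and VAT of 1 mouse share their number in the labels. Correlations between their deviations from group means were -0.00146 to 0.175 (median 0.0765, 8 pairs), against -0.155 to 0.117 (median -0.0373) in 24 pairs of different mice. The pathway genes named are those called in either depot, and the 5 genes most like Hephl1 were taken by Pearson's r of log2 CPM (prior count 2). The tests were tested on simulated data. Intervals for counts cover counting error only: a count of 0 allows 3 counts, and 1 count stood for 0.0596 to 0.666 scaled CPM. Each mouse is a separate animal. Alternatives were RLE size factors, no filter, filterByExpr, DESeq2 1.42.0, limma 3.58.1 voom, legacy=FALSE, 1 depot only, and each mouse left out. For the diet comparisons, same-numbered lean and obese mice were also taken as a block. The comparisons with the mouse as a block were repeated without it, which is called no replicate block. Leaving out either shallow VAT library was added after seeing the data. Iron-responsive elements were searched in GENCODE transcripts of GRCm39, and promoters came from RefSeq. Body weights were not analysed here.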

Additional observations from a re-analysis of the deposited data

Results flagged for a closer look

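In 4 of 76 groups of 4 libraries (19 genes), the highest or lowest library stood apart by Dixon's test, which chance alone does in about 1 of 20 groups. Hmox1 reached 233 CPM in VAT of obese mouse 4, and Steap4 reached 1979 CPM in SAT of the same mouse. Bmp2 was lowest in VAT of that mouse too, at 12.4 CPM. Lox reached 8.66 CPM in VAT of lean mouse 1, the shallowest library.

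The diet response of Trf differed between the depots, VAT minus SAT being -0.93 on the log2 scale (edgeR adjusted p = 0.00246), and so did that of Aoc3, at -0.82 (adjusted p = 0.00963). For Hephl1 the same difference was -4.34, the value for which the gene was chosen.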

How the results depend on the processing

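Of 55 gene values, 973 values under alternatives were computed: 885 kept direction and side of the threshold, 55 lost the call, 22 gained one and 11 changed sign, all 11 uncalled. The 885 include every value of Hephl1, a gene chosen on these data. For Hephl1 the change in size was set against its spread within groups, and no threshold was used. In obese mice Hmox1 in VAT minus SAT (-0.08) became 0.07 with no replicate block, 0.14, 0.04 and 0.03 without obese mice 1, 2 and 3, 0.10 without the VAT library of obese mouse 1, and -0.42 (called) without obese mouse 4. Bmp2 in VAT became 0.01 without lean mouse 1, its VAT library or obese mouse 4 (range -0.13 to 0.01), Lox in VAT -0.30 and -0.32 without obese mouse 1 or its VAT library (up to 0.62 without lean mouse 1 and 0.63 without its VAT library), and Trf in lean VAT minus SAT -0.09 without lean mouse 2. Called members in SAT, 0 by transcript and by gene, were 1 (Hmox1) with no filter and in a fit of 1 depot only, and 0 without any 1 mouse. In VAT, 4 by transcript and 3 by gene, they were 1 to 4 leaving out 1 mouse, and 1 by transcript without the VAT library of obese mouse 1. Slc11a1, where called, is among these VAT counts. The same holds for the counts below between depots in obese mice and with same-numbered mice as a block. Since Slc11a1 passed the filter through obese VAT, its part in them is a description. In the paired comparisons, the 1 call in the difference of responses was 0 with no replicate block and 1 without any 1 mouse. In lean mice the 1 call between depots was 2 with no filter, 0 by voom, with legacy=FALSE, with no replicate block and without the VAT library of lean mouse 1, and 0 to 1 leaving out 1 mouse, and in obese mice the 3 calls were 2 to 4 leaving out 1 mouse and 4, with Tfrc, with no filter. Pathway calls were 5 to 9 in SAT and 6 to 10 in VAT leaving out 1 mouse. Taking same-numbered lean and obese mice as a block changed the VAT diet calls of members from 3 to 4 by gene and the SAT pathway calls from 8 to 11. Lean and obese mice are different animals, so their numbers were not taken to pair them. Correlations were -0.0928 to 0.172 in same-numbered pairs (median 0.0675) and -0.00146 to 0.175 between the depots of 1 mouse (median 0.0765). These ranges overlap, so the correlations do not separate the kinds of pair. The cause of these changes was not tested. Cp, Slc11a1, Tfrc and Fth1 are limited by counts. Tfr2, Blvra and Mt1 also had few counts in lean VAT, at most 17 in a library.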
